A study of Homo sapiens with 12 samples.

Results

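The transcriptional response to RBM3 siRNA that MIA PaCa-2 and PANC-1 had in common was estimated from 11 of the 12 libraries of the series. Both are established human pancreatic carcinoma cell lines. For MIA PaCa-2 there were RBM3 siRNA replicates 1, 2 and 5 with control siRNA replicates 1, 2 and 4. For PANC-1 there were RBM3 siRNA replicates 1 and 2 with control siRNA replicates 1, 2 and 4, so 5 siRNA libraries stood against 6 controls. All cells, controls included, were grown for 72 h, exposed for 4.5 h to a lipid reagent with siRNA at 25 nM, and left overnight in full medium. The RBM3 siRNA was a mixture of 2 molecules given together, so their effects cannot be told apart, and the control was a negative control siRNA. Every library came from an unselected line rather than from primary tissue. The labels name the material of all 12 libraries both as total RNA and as cytoplasmic RNA, so whether nuclear transcripts were measured is not known. Whether replicates were separate cultures is not stated in the labels. The p-values therefore measure the spread between these samples, and part of that spread may be technical. The effect was the average difference between RBM3 siRNA and control in a model with line as an additive term, fitted over all 18422 genes that passed the filter on low counts.

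RBM3 is an RNA-binding protein whose synthesis goes up when cells are cooled. It carries an RNA recognition motif and a glycine-rich tail, binds many mRNAs, and has been linked to translation, to mRNA stability and to the choice of polyadenylation sites. The study used its depletion to look for transcripts that depend on it, and PRR11, named in its title, encodes a proline-rich protein with a part in the cell cycle.

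PANC1_siRBM3 replicate 3 stood apart before any comparison and was left out. Transcripts that mark MIA PaCa-2 (COL1A2, ALDH1A1, UCA1 and SLC17A9) summed to 1236 CPM (counts scaled to library size) in it, between 0.507 and 4.02 CPM in the other PANC-1 libraries and between 2254 and 3445 CPM in MIA PaCa-2. Total counts of the 11 libraries ran from 14217185 to 39652502. Both PANC-1 siRNA libraries, at 32564458 and 33341322 counts, were deeper than all 3 PANC-1 controls, at 14217185 to 23993638, whereas the depths of the groups overlapped in MIA PaCa-2. The first principal component of PANC-1 held 59.1% of its variance and set control replicate 1 and siRNA replicate 2 apart from the other 3 libraries, so the largest variation in that line did not follow the siRNA. The 20 epithelial markers summed to 2436 to 3784 CPM in MIA PaCa-2 and 4879 to 8576 CPM in PANC-1, led by KRT8. In MIA PaCa-2, 9 of the 20 stayed under 1 CPM in all 6 libraries, among them the defining genes CDH1, EPCAM, KRT7 and CLDN3. In PANC-1 GRHL2 alone did so. The 10 fibroblast and stroma markers summed to 952.1 to 1861 CPM in MIA PaCa-2, where COL1A2 held most of the sum, and to 142.6 to 248.4 CPM in PANC-1, where COL1A1 did, while DCN, LUM, PDGFRA and FAP stayed under 1 CPM in both lines. Immune markers (10 genes) summed to at most 23.3 CPM and endothelial markers (6 genes) to at most 8.41 CPM.

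RBM3 (ENSG00000102317), the siRNA target, fell in the fit common to both lines. The MIA PaCa-2 controls (replicates 1, 2 and 4) held 255, 271 and 204 CPM, and the siRNA libraries (replicates 1, 2 and 5) 44.9, 37.3 and 60.7 CPM (normalised by TMM, the trimmed mean of M values, as are all CPM given here). The PANC-1 controls (replicates 1, 2 and 4) held 569, 429 and 435 CPM, and siRNA replicates 1 and 2 held 94.5 and 195.5 CPM. Further values are given in this order of replicates. All 5 siRNA libraries lay below all controls of their line, and siRNA replicate 2 of PANC-1 kept the most RBM3 of the 5. Across lines the log2 fold change was -2.07 (SE 0.21), which leaves 23.8% of the control level. Its adjusted p was 0.00245 in edgeR's quasi-likelihood test. An exact two-sided permutation of the labels within lines gave p = 0.005, the smallest that 200 arrangements allow. The remaining level was 19.5% in MIA PaCa-2 (log2 fold change -2.36, SE 0.27) and 30.4% in PANC-1 (-1.72, SE 0.30). In the model of group means that gives the values per line, its edgeR adjusted p was 0.01765 for MIA PaCa-2 and 1 for PANC-1, where the unadjusted p was 8.36e-05. The difference of 0.64 (SE 0.38) between the lines had an unadjusted edgeR p of 0.120. With PANC1_siRBM3 replicate 3 kept in, where RBM3 was at 83.0 CPM, the common log2 fold change was -2.14 with an edgeR adjusted p of 0.00290. With log2 total count as a covariate it was -2.11 (edgeR adjusted p 0.00958). In libraries made from whole cultures, less RNA per cell and fewer cells that express a gene cannot be told apart.

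**Figure D1:**
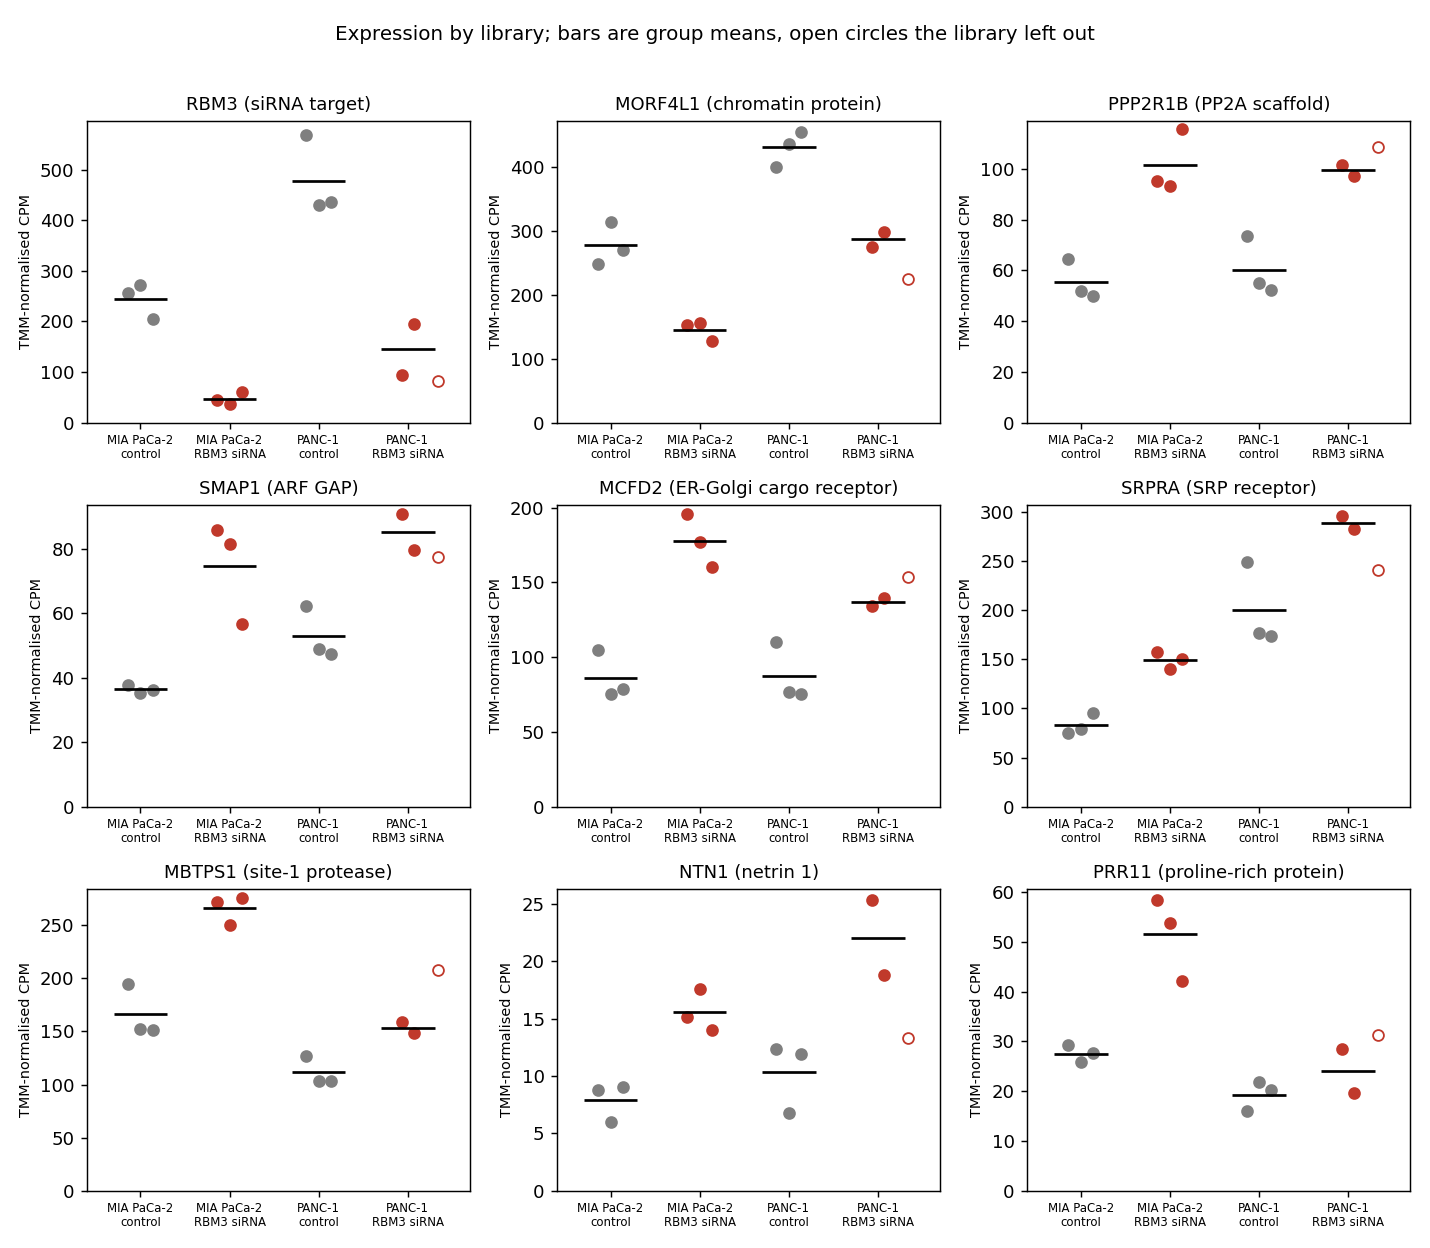
Expression of 9 genes in every library, in TMM-normalised CPM on the vertical axis, with 1 point per library, grouped by line and siRNA; bars are group means and open circles mark PANC1_siRBM3 replicate 3, which was left out. RBM3 and MORF4L1 lie lower, and 6 of the other genes higher, in all 5 filled siRNA points than in the controls of the same line, while PRR11 overlaps in PANC-1.

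Beyond RBM3 the edgeR test called no gene. It called 0 genes higher (0% of the 18422 tested) and 1 lower (0.00543%), at a Benjamini-Hochberg adjusted p under 0.05. At an unadjusted p under 0.05 there were 349 genes higher (1.89%) and 205 lower (1.11%). At an adjusted p under 0.1 there were 4 (0.0217%), namely RBM3, MORF4L1, PPP2R1B and SMAP1. Over all genes tested the median absolute log2 fold change was 0.13 and the median SE was 0.21. The call of RBM3 held without each library in turn, at an edgeR adjusted p between 2.79e-05 and 0.0209. The count of other calls moved when either of the PANC-1 libraries that the first principal component set apart was left out. With both kept and an indicator for this pair in the model, edgeR called 0 genes higher and RBM3 alone lower. Without PANC-1 control replicate 1, edgeR called 9 genes higher (0.0495%: MCFD2, CYRIB, BOD1, PPP2R1B, SRPRA, SMAP1, PIP4K2A, CALU and RFK) and 2 lower (0.011%: RBM3 and MORF4L1). Without PANC-1 siRNA replicate 2, in which RBM3 was least reduced, it called 0 higher and 5 lower (0.0262%: RBM3, HIF1AN, SLC25A44, MORF4L1 and PDS5A). With the left-out library kept in, PPP2R1B and MCFD2 were called higher and RBM3 and MORF4L1 lower, 0.0112% of the genes in each direction.

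MORF4L1 (ENSG00000185787), which came next after RBM3, encodes MRG15, a chromodomain protein found in histone acetyltransferase and deacetylase complexes. It was at 248, 314 and 270.2 CPM in the MIA PaCa-2 controls and at 153, 156 and 127.5 CPM in the siRNA libraries. The PANC-1 controls held 399.8, 436 and 455 CPM and the siRNA libraries 274.5 and 298.5 CPM. The groups did not overlap in either line, which the rule that picked the gene required. The common log2 fold change was -0.78 (SE 0.11) and the edgeR adjusted p 0.0611, with -0.93 (SE 0.14) in MIA PaCa-2 and -0.59 (SE 0.16) in PANC-1. By DESeq2 the adjusted p was 4.13e-06. The left-out library, at 225 CPM, was also below the PANC-1 controls. It held transcripts of both lines, and the MIA PaCa-2 controls, at 248 to 314 CPM, lay below the PANC-1 controls too. Its place is therefore not a separate result for PANC-1, and the part of the mixture in it was not tested. With this library kept in, the edgeR adjusted p was 0.0372. The edgeR adjusted p was under 0.05 as well without PANC-1 control replicate 1 or siRNA replicate 2, and over the removals of each library it ran from 0.0214 to 0.345.

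MORF4L1P1, a processed pseudogene of MORF4L1, was lower by a log2 fold change of -0.69 (SE 0.12) and had an edgeR adjusted p of 0.1855. The MIA PaCa-2 controls held 21.8, 22.4 and 20.7 CPM of it and the siRNA libraries 13.0, 13.96 and 11.1 CPM. In PANC-1 the controls held 33.0, 39.0 and 41.6 CPM and both siRNA libraries 24.8 CPM, again without overlap. Its sequence is shown because reads of 75 bases cannot always separate it from its parent. Of the 75-base stretches of MORF4L1P1 in the GENCODE transcripts, 54.4% occur identically in other genes, MORF4L1 among them, against 6.53% of those of MORF4L1. The pair below is a 75-base stretch of the MORF4L1 coding sequence (coding bases 463 to 537) and the matching bases 346 to 420 of the MORF4L1P1 transcript, 5′ to 3′, with the single differing base in capitals.
MORF4L1: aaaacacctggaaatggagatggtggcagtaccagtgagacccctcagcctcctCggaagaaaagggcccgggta
MORF4L1P1: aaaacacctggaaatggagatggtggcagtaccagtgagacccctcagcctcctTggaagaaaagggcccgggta
The values of the 2 genes are therefore not independent of each other. No stretch of RBM3, PPP2R1B, SMAP1 or SRPRA was shared with another gene.

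Among genes with more transcript under RBM3 siRNA, PPP2R1B, SMAP1 and MCFD2 had the smallest p-values. The 12 leading higher genes, given here and below, were picked by a rule that asked for groups without overlap in both lines. Absence of overlap in them is therefore not a result. PPP2R1B (ENSG00000137713) encodes the beta form of the scaffold subunit of protein phosphatase 2A, which holds the catalytic and regulatory subunits together. SMAP1 (ENSG00000112305) encodes a GTPase-activating protein for ARF6 that acts in endocytosis, and MCFD2 (ENSG00000180398) encodes the partner of LMAN1 in a receptor that carries glycoproteins from the endoplasmic reticulum (ER) to the Golgi. To show what lies upstream of these genes, the 200 bases before each RefSeq transcription start (GRCh38.p14) are given 5′ to 3′ on the gene's strand. Capitals mark matches, on either strand, to 6 short motifs searched: the GC box GGGCGG, the CCAAT box, the E-box CACGTG, the cAMP response element core TGACGT, the ETS core CGGAAG and the YY1 core ATGGCG. The end of GGGCGG and the start of CGGAAG share letters, so those motifs could overlap, and in the sequences printed no matches did.
PPP2R1B, chr11:111766390-111766589, minus strand: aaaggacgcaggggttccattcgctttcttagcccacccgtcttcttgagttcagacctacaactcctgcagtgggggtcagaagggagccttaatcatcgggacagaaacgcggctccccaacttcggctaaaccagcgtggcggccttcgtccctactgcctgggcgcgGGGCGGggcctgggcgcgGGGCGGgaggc
SMAP1, chr6:70667683-70667882, plus strand: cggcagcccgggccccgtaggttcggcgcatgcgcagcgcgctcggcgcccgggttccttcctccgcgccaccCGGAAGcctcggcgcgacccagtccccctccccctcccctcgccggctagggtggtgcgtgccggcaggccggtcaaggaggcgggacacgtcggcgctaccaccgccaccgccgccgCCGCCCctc
MCFD2, chr2:46916113-46916312, minus strand: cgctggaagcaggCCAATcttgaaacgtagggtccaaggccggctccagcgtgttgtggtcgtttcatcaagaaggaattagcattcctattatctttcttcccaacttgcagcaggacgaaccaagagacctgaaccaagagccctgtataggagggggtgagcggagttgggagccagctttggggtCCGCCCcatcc
All 3 windows held a GC box, as did 40.1% of 35116 RefSeq windows of this length. The ETS core of SMAP1 was in 14.6% of them and the CCAAT box of MCFD2 in 28.0%. The other motifs, absent from these 3 windows, were in 5.49% (E-box), 6.33% (cAMP response element core) and 5.25% (YY1 core). A match is a description of the letters and not a site of binding.

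PPP2R1B was at 64.5, 51.7 and 49.8 CPM in the MIA PaCa-2 controls and at 95.4, 93.2 and 115.5 CPM in the siRNA libraries. For PANC-1 the values were 73.5, 54.9 and 52.4 CPM in the controls and 101.6 and 97.2 CPM in the siRNA libraries. All siRNA libraries lay above all controls of their line, and control replicate 1 was the highest control in both lines. The log2 fold change was 0.80 (SE 0.13), with adjusted p-values of 0.0902 (edgeR) and 2.12e-05 (DESeq2). It was 0.87 (SE 0.18) in MIA PaCa-2 and 0.72 (SE 0.19) in PANC-1. Of the 14 tested subunits and regulators of the phosphatase, edgeR called none, and 8 had a positive and 6 a negative log2 fold change, with a median of 0.05. PPP2R5E, a regulatory subunit, was at 0.24 (SE 0.12), and PPP2R1A, the alpha scaffold, at -0.13.

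SMAP1 was at 37.9, 35.4 and 36.2 CPM in the MIA PaCa-2 controls and at 85.7, 81.6 and 56.7 CPM in the siRNA libraries. The PANC-1 controls held 62.2, 48.9 and 47.4 CPM and the siRNA libraries 90.8 and 79.6 CPM. The groups did not overlap in either line, and siRNA replicate 5 of MIA PaCa-2 was the closest to its controls. The log2 fold change was 0.88 (SE 0.14), with adjusted p-values of 0.0902 (edgeR) and 1.51e-05 (DESeq2).

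Genes of the early secretory pathway were among the leading genes. MCFD2 was at 104.5, 75.6 and 78.9 CPM in the MIA PaCa-2 controls and at 196, 177 and 160.3 CPM in the siRNA libraries. In the PANC-1 controls it was at 109.8, 76.7 and 75.4 CPM and in the siRNA libraries at 134 and 139.7 CPM. The siRNA libraries lay above all controls of their line, with a log2 fold change of 0.87 (SE 0.14) and adjusted p-values of 0.1035 (edgeR) and 7.54e-05 (DESeq2). SRPRA, the alpha subunit of the receptor that docks the signal recognition particle at the ER membrane, was at 75.2, 78.8 and 95.6 CPM in the MIA PaCa-2 controls and at 158, 140.2 and 150.0 CPM in the siRNA libraries. In PANC-1 it was at 249, 177 and 174 CPM in the controls and at 296 and 282 CPM in the siRNA libraries, again without overlap. Its log2 fold change was 0.71 (SE 0.13) and the edgeR adjusted p 0.1855. MBTPS1, the site-1 protease that cleaves membrane-bound transcription factors such as SREBPs and ATF6 in the Golgi, was at 195, 152 and 152 CPM in the MIA PaCa-2 controls and at 272, 251 and 276 CPM in the siRNA libraries. In PANC-1 it was at 127, 103.5 and 103.7 CPM in the controls and at 159 and 148.3 CPM in the siRNA libraries. These groups too were separate in both lines, with a log2 fold change of 0.58 (SE 0.11) and an edgeR adjusted p of 0.2265.

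The list of 34 genes for entry into the ER and transport between ER and Golgi, which holds MCFD2 and SRPRA, differed little as a whole. Of 32 members tested, 0 passed over all genes in edgeR in either direction. An unadjusted edgeR p under 0.05 was met by 2, both higher and named above, beside 1.89% of all genes tested. The list was chosen with earlier results of these data known, so these 2 are not separate evidence for it. The log2 fold change was positive in 25 and negative in 7, with a median of 0.07 beside 0.00 for all genes tested, of which 50.2% were positive. In 18 members it was positive in both lines and in 2 negative in both. SEC62, a subunit of the translocation machinery, was at 0.32, SEC24A, a COPII coat protein, at 0.35, and LMAN1, the partner of MCFD2, at 0.14. The mean log2 CPM of the list was highest, within each line, in siRNA replicate 1 of MIA PaCa-2 (7.43, beside 7.20 to 7.27 in the controls) and in siRNA replicate 2 of PANC-1 (7.37, beside 6.99 to 7.29). It did not separate the groups, with 7.21 in MIA PaCa-2 siRNA replicate 5 and 7.12 in PANC-1 siRNA replicate 1. The ER chaperone list was similar, with 13 of 22 members positive and a median of 0.06. There SEL1L, an adaptor of the ubiquitin ligase that removes misfolded ER proteins, had a log2 fold change of 0.60 (SE 0.17), and DNAJC3, a co-chaperone, one of 0.55 (SE 0.22). HSPA5, the main luminal chaperone, was at 0.12.

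The remaining 7 genes at the head of the higher direction had log2 fold changes from 0.71 to 1.02 and edgeR adjusted p-values from 0.206 to 0.285. NTN1, which encodes the secreted guidance cue netrin 1, had the highest of the 12, at 1.02 (SE 0.19). It was at 8.76, 5.97 and 9.05 CPM in the MIA PaCa-2 controls and 15.1, 17.6 and 13.97 CPM in the siRNA libraries, and at 12.4, 6.78 and 11.9 CPM in the PANC-1 controls and 25.3 and 18.8 CPM in the siRNA libraries. No control reached a siRNA library of its line. Here the left-out library differed from the other PANC-1 siRNA libraries, at 13.3 CPM. TAPT1, a transmembrane protein gene, had a log2 fold change of 0.95 (SE 0.19), NRBF2, a subunit of the autophagy lipid kinase complex, one of 0.90 (SE 0.18), and PIP4K2A, a phosphoinositide kinase, one of 0.87 (SE 0.18). For RFK, the riboflavin kinase that makes flavin mononucleotide, it was 0.86 (SE 0.17), for BOD1, a kinetochore protein that inhibits protein phosphatase 2A, 0.80 (SE 0.17), and for SLC45A4, a solute carrier, 0.71 (SE 0.14). In NRBF2, 9.90% of 75-base stretches are shared with its pseudogenes. For PYURF, one of the lower genes named below, 11.6% are shared with other genes, PIGY among them.

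In the lower direction the genes after MORF4L1 and MORF4L1P1 were less separated. NIPSNAP3A was at 27.03, 30.0 and 25.4 CPM in the MIA PaCa-2 controls and 11.4, 12.01 and 16.1 CPM in the siRNA libraries, but at 17.8, 18.9 and 17.8 CPM in the PANC-1 controls and 12.6 and 17.3 CPM in the siRNA libraries. Its groups were far apart in MIA PaCa-2 and nearly touched in PANC-1. The log2 fold change was -0.71 (SE 0.18) and the edgeR adjusted p 0.721, and it was the only one of the 11 lower genes named here besides RBM3 with an unadjusted edgeR p under 0.05 for the difference between lines (0.0224). PRKAG2, a regulatory subunit of the AMP-activated kinase, was at 129, 129 and 148 CPM in the MIA PaCa-2 controls and 94.3, 99.8 and 83.7 CPM in the siRNA libraries, and at 101.1, 102.8 and 113.2 CPM in the PANC-1 controls and 82.9 and 95.0 CPM in the siRNA libraries. It did not overlap in either line, and its log2 fold change was -0.41 (SE 0.11) and the edgeR adjusted p 0.797. The other 7 were PYURF, a small mitochondrial protein gene at -0.52 (SE 0.14), PKN3, a serine/threonine kinase at -0.59 (SE 0.16), LSM10, a U7 snRNP component of histone mRNA processing at -0.42 (SE 0.12), RACGAP1, a centralspindlin subunit needed for cytokinesis at -0.38 (SE 0.11), NRSN2 at -0.55 (SE 0.17), ACTN4, an actin crosslinker at -0.32 (SE 0.10), and HDGF, a heparin-binding growth factor at -0.37 (SE 0.11). Their edgeR adjusted p-values lay between 0.843 and 0.9996. The 12 leading higher genes and the 11 lower genes besides RBM3 were picked by a rule that asked for separate groups in both lines. The absence of overlap in them is therefore not a result.

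**Figure D2:**
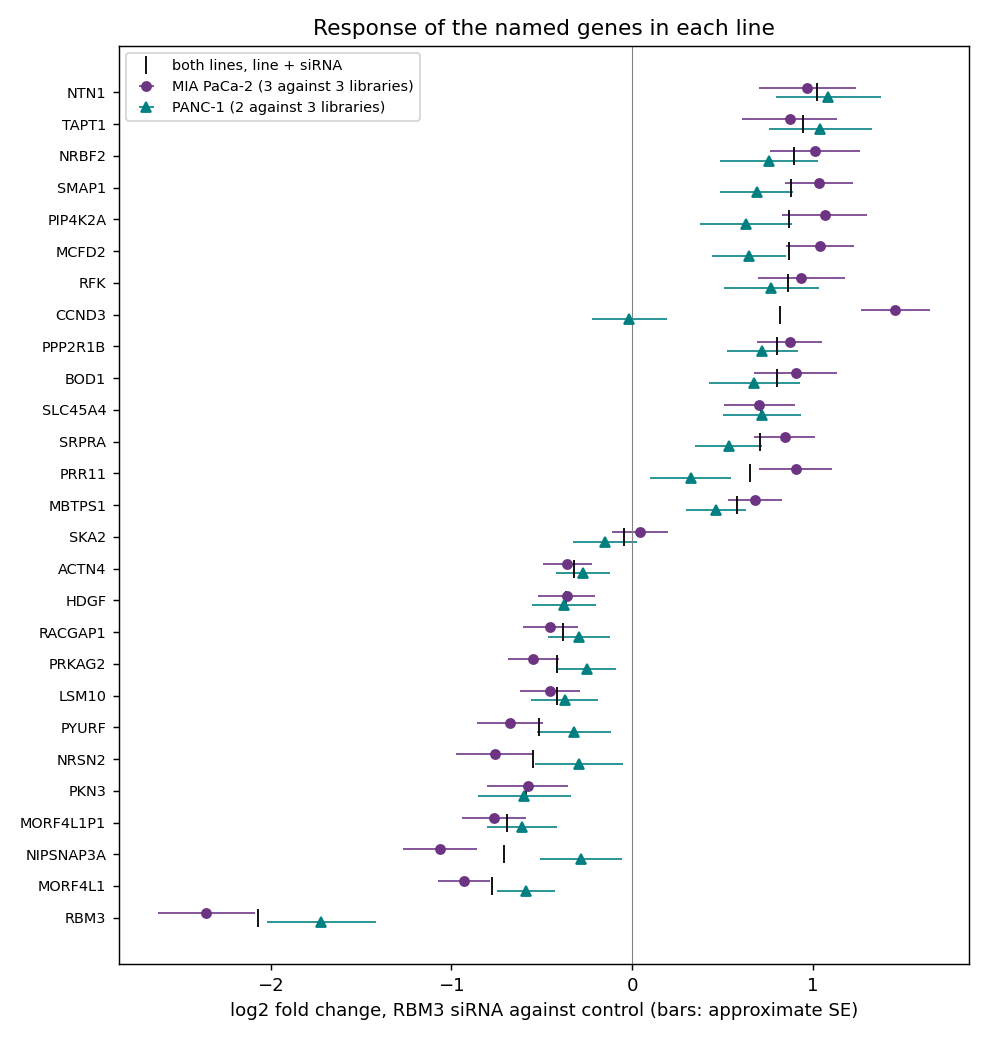
Log2 fold change, RBM3 siRNA against control, on the horizontal axis for each named gene, with circles for MIA PaCa-2 (3 siRNA against 3 control libraries), triangles for PANC-1 (2 against 3), bars for the approximate SE and black ticks for the estimate common to both lines. RBM3 is at -2.36 and -1.72, PPP2R1B at 0.87 and 0.72, and CCND3 at 1.46 and -0.02.

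Whether the lines responded differently was tested by the interaction term. edgeR called 0 genes for a difference between the lines (0%), with a smallest adjusted p of 1, and 358 genes had an unadjusted p under 0.05 (1.94%). A missing call does not show that the lines responded alike. Among the 12 leading higher genes the log2 fold changes ran from 0.68 to 1.07 in MIA PaCa-2 and from 0.46 to 1.09 in PANC-1, with the MIA PaCa-2 value larger in 9 of 12. The 11 lower genes ran from -1.07 to -0.36 and from -0.61 to -0.25, also larger in size in MIA PaCa-2 in 9. Over all genes tested, the signs in the lines were the same in 9458 of 18422. All siRNA libraries lay above all controls of both lines in 92 genes (0.499%) and below in 60 (0.326%). The siRNA libraries lay above the controls in MIA PaCa-2 and below them in PANC-1 in 62 genes (0.337%), and the reverse held in 14 (0.076%). For labels exchanged within lines, over 200 arrangements, each of these 4 outcomes has an expected share of 0.005. This is a fraction, whereas the shares just given are percentages. None of the 4 shares of all genes tested exceeded it, so the counts by themselves are not a result. At a mean of 2 CPM or more, met by 13070 genes, the 4 counts were 70, 44, 29 and 5. Those were not set against the expected share. The 10 genes on opposite sides with the smallest p for the difference were chosen after their values were seen. They included 7 ribosomal protein pseudogenes, such as RPSAP61, at 0.35 in MIA PaCa-2 against -0.62 in PANC-1, and RPS24P19, at 0.63 and -0.28. With the left-out library kept in, 63 genes were above and 29 below all controls in both lines. With 1 of the 11 libraries removed the first count was between 104 and 315 (highest without MIA PaCa-2 siRNA replicate 5) and the second between 63 and 252 (highest without PANC-1 siRNA replicate 2), since fewer libraries had to be separated.

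PRR11, SKA2 and CCND3 were not called by edgeR for the common effect. The study picked PRR11 from these libraries, and its direction here is not independent evidence. It was at 29.2, 25.8 and 27.6 CPM in the MIA PaCa-2 controls and 58.5, 53.9 and 42.2 CPM in the siRNA libraries, and at 15.9, 21.7 and 20.2 CPM in the PANC-1 controls and 28.5 and 19.7 CPM in the siRNA libraries. The groups were separate in MIA PaCa-2 and overlapped in PANC-1, where siRNA replicate 2 lay within the controls. The common log2 fold change was 0.65 (SE 0.16). The edgeR adjusted p was 0.721, and exact permutation gave p = 0.025. It was 0.90 (SE 0.20) in MIA PaCa-2 and 0.32 (SE 0.23) in PANC-1, and the difference of -0.58 (SE 0.31) had an unadjusted edgeR p of 0.0809. With the left-out library, at 31.3 CPM, the common value was 0.69 and the edgeR adjusted p 0.4405. SKA2, which lies head to head with PRR11 and encodes a kinetochore protein, had a common log2 fold change of -0.04 (SE 0.11) and an exact permutation p of 0.59. The value for SKA2 was 0.16 with the left-out library kept in, where the gene was at 68.7 CPM beside 34.2 and 34.8 CPM in the other PANC-1 siRNA libraries. That library held transcripts of both lines. The MIA PaCa-2 siRNA libraries held more PRR11 and SKA2 than those 2 PANC-1 libraries, with SKA2 at 82.7 to 95.2 CPM.

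CCND3, which encodes the G1 cyclin D3, was far apart between groups in 1 line only. It was at 18.5, 17.7 and 14.9 CPM in the MIA PaCa-2 controls and 40.3, 40.7 and 59.4 CPM in the siRNA libraries, but at 51.1, 60.7 and 54.6 CPM in the PANC-1 controls and 56.4 and 53.3 CPM in the siRNA libraries. The groups were separate in MIA PaCa-2 and fully mixed in PANC-1. The common log2 fold change was 0.82 (SE 0.25). The edgeR adjusted p was 0.9996, and exact permutation gave p = 0.055. The difference between the lines was -1.47 (SE 0.28), with an unadjusted edgeR p of 0.000195 and an adjusted p of 1. PDS5A, a regulator of cohesin release, also had its difference mainly in MIA PaCa-2. It was at 230.2, 184 and 212 CPM in the MIA PaCa-2 controls and 87.5, 77.1 and 81.2 CPM in the siRNA libraries, and at 164, 223 and 169.5 CPM in the PANC-1 controls and 119 and 197.5 CPM in the siRNA libraries. In PANC-1 one siRNA library was below and the other within the controls. The log2 fold change of PDS5A was -1.35 in MIA PaCa-2 against -0.23 in PANC-1, with an unadjusted edgeR p of 0.00216 for the difference, and the common value was -0.84 (SE 0.21) and the edgeR adjusted p 0.690. For the MIA PaCa-2 effect in the model of group means, edgeR called CCND3 higher (adjusted p 0.04169, 0.00543% of the genes tested) and RBM3 lower (0.00543%), and the adjusted p of PDS5A was 0.0903. Fitted without any PANC-1 library, edgeR called 0 genes higher and 2 lower (0.013%), RBM3 and PDS5A.

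Other tests on the same 11 libraries and the same model gave more calls. DESeq2 called 23 genes higher (0.112% of the 20535 that it gave an adjusted p) and 4 lower (0.0195%). It was run without the filter on low counts, on 34711 genes, so its gene set also differed from that of edgeR. The calls of limma-voom with sample quality weights were 59 higher (0.32% of 18422) and 18 lower (0.0977%). limma-voom without weights called RBM3 alone. All 12 leading higher genes were called by DESeq2 and by weighted limma-voom. Of the 11 lower genes besides RBM3, DESeq2 called 2 (MORF4L1 and MORF4L1P1) and weighted limma-voom 8. Both sets were picked by their edgeR p in the same libraries, so these calls are not separate evidence. The weights were lowest for PANC-1 siRNA replicate 2 (0.297), MIA PaCa-2 control replicate 1 (0.411) and PANC-1 control replicate 1 (0.425). Of the 27 DESeq2 calls, 26 were among the 77 of weighted limma-voom (96.3% of the first list and 33.8% of the second), and all 27 had the same sign in both lines. In 26 of the 27 the siRNA libraries did not overlap the controls in either line, beside 0.499% of all genes tested above and 0.326% below. HIF1AN, the asparagine hydroxylase that restrains HIF, was the exception, with a log2 fold change of -0.92 in MIA PaCa-2 against -0.35 in PANC-1. It was also the only one of the 27 with an unadjusted edgeR p under 0.05 for the difference between the lines (0.0264). The 27 were picked for a common effect in the same libraries, so their like signs and lack of overlap are not separate evidence. Further DESeq2 calls were MET, the receptor tyrosine kinase for hepatocyte growth factor, at 1.02 (SE 0.24, edgeR adjusted p 0.539) with 1.06 in MIA PaCa-2 against 0.99 in PANC-1, RBPJ, the DNA-binding factor of Notch signalling, at 0.93 (SE 0.19, edgeR adjusted p 0.290), and G3BP2, a stress granule protein, at 0.54 (SE 0.12, edgeR adjusted p 0.519). MET, RBPJ, G3BP2, HIF1AN, CALU, CYRIB and SLC25A44 are named because a tool called them, once their values had been seen.

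**Figure D3:**
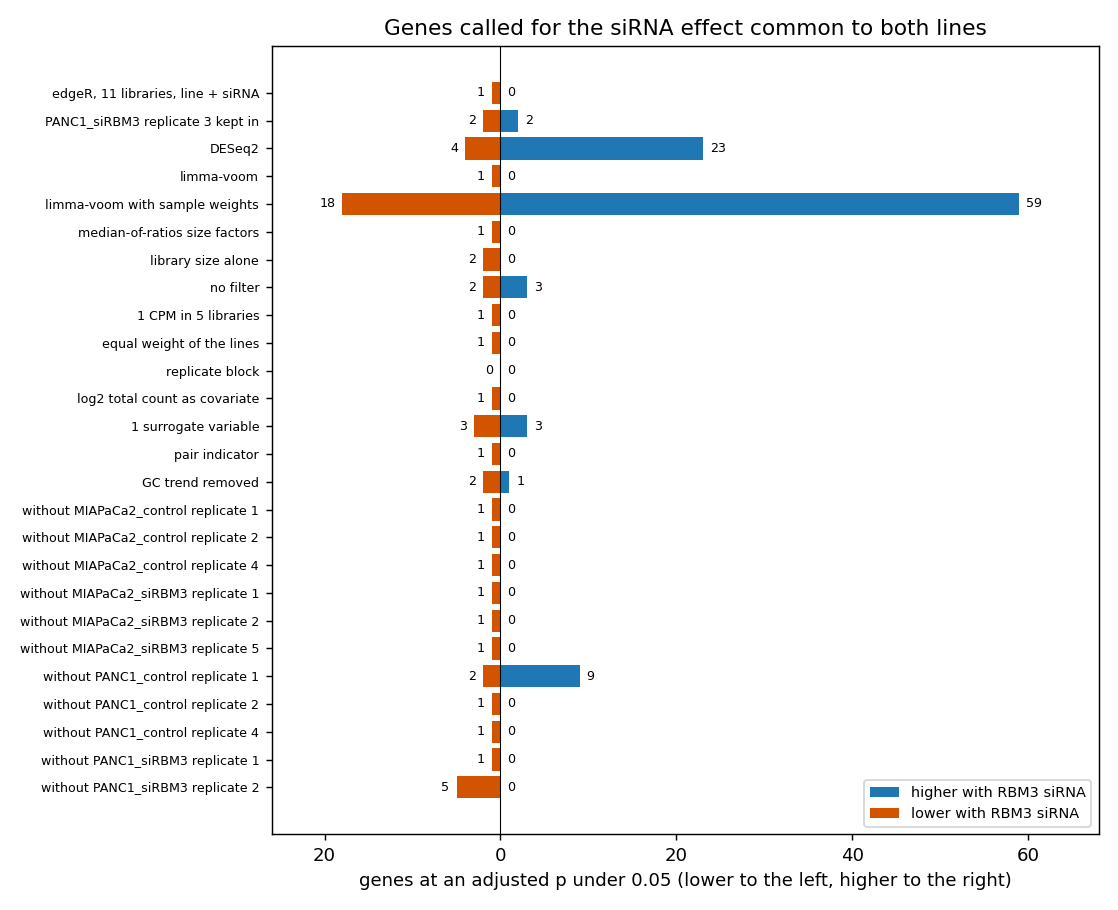
Number of genes at an adjusted p under 0.05 for the siRNA effect common to both lines, counted to the right for higher and to the left for lower, with 1 row per tool or setting. edgeR on the 11 libraries called 0 higher and 1 lower, DESeq2 23 and 4, and limma-voom with sample weights 59 and 18.

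GC content and transcript length were described for the 70 genes without overlap in the higher direction at 2 CPM or more and the 44 in the lower direction. The median GC content of their GENCODE transcript with the longest coding sequence was 45.6% and 56.2%, beside 49.3% for all 13070 genes at that level. The median length of the 3′ untranslated region was 1496 bases in the higher and 866 bases in the lower genes, beside 1006 bases for all. Lack of overlap alone does not mark a response to the siRNA, so these values describe the sets only. Libraries also differed in GC content within groups. The fitted log2 level of GC-rich against GC-poor genes, relative to the line mean, was -0.33, 0.43 and 0.11 in the MIA PaCa-2 controls and -0.51, -0.12 and 0.43 in the siRNA libraries. In PANC-1 the values were 0.01, 0.05 and 0.22 in the controls and 0.04 and -0.31 in siRNA replicates 1 and 2. The part of this trend in the counts of genes without overlap was not tested. With this trend removed from each library, edgeR called RBM3 and MORF4L1 lower (0.0112%) and SMAP1 higher (0.00559%). The log2 fold change was then -0.85 for MORF4L1 (edgeR adjusted p 0.0449) and 0.83 for SMAP1 (0.0495), and for PPP2R1B it was 0.78 (0.0753).

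Gene lists around RBM3 and its known partners held no second called gene. Of 7 tested genes of the cold response, edgeR called RBM3 lower, and the other 6 lay between -0.12 and 0.08. CIRBP, the other cold-inducible RNA-binding protein and closest relative of RBM3, was at 0.05 (SE 0.23) on the log2 scale. Among 24 SR proteins and hnRNPs, which bind pre-mRNA and guide splicing, 19 were negative and 5 positive, with a median of -0.05 (-0.14 to -0.02 when each library was left out) and none past the threshold. The median was -0.11 in MIA PaCa-2 against -0.01 in PANC-1, and 12 of the 24 had the same sign in both lines. HNRNPA2B1 was at -0.14 (SE 0.09) and HNRNPA3 at -0.17 (SE 0.09). For 19 cleavage and polyadenylation factors the median was 0.02, with 12 positive, and for 13 genes of microRNA processing it was 0.03, with 7 positive. AGO1, an Argonaute protein, was at -0.26 (SE 0.12) across lines, -0.51 in MIA PaCa-2 against 0.04 in PANC-1. Translation initiation factors had 24 of 28 members positive but a median of 0.06, with EIF3B at 0.25 (SE 0.13) and EIF5B at 0.24 (SE 0.14). That median was 0.05 in MIA PaCa-2 against 0.06 in PANC-1, and it stayed between 0.02 and 0.11 over the 27 fits run.

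Of the cell cycle lists, DNA replication had a negative median in each line and mitosis did not. Of 25 replication genes 21 had a negative log2 fold change, and 16 were negative in both lines against 1 positive in both. The median was -0.12 (-0.11 in MIA PaCa-2, -0.14 in PANC-1), no member passed, and none had an unadjusted p under 0.05. The size of this median rested on single MIA PaCa-2 libraries. It was -0.05 without control replicate 1, -0.06 without control replicate 2 or siRNA replicate 1, -0.19 without control replicate 4 and -0.22 without siRNA replicate 5. With PANC1_siRBM3 replicate 3 kept in it was -0.05. MCM3, a subunit of the replicative helicase, was at -0.40 (SE 0.23), and CDC6, which loads that helicase, at -0.33 (SE 0.21). The mean log2 CPM of the list overlapped between groups, at 6.67, 6.57 and 5.92 in the MIA PaCa-2 controls and 6.04, 6.26 and 6.61 in the siRNA libraries. Of 34 mitosis genes 23 were positive, with a median of 0.14 in MIA PaCa-2 against -0.08 in PANC-1. The common median was 0.06, and -0.05 without PANC-1 siRNA replicate 1. The list includes KIF23, a centralspindlin motor, at 0.22 (SE 0.12). Among 20 genes of the G1 machinery, CDK2, a kinase of S phase entry, was at -0.43 (SE 0.14, edgeR adjusted p 0.9996), beside CCND3. In the cohesin list STAG2 was at 0.62 (SE 0.17) and its paralog STAG1 at -0.56, while PDS5A was given above. Of the partners of MORF4L1 in the acetyltransferase complex, KAT5, the catalytic subunit, was at 0.31 (SE 0.14), and the median of the 18 members was 0.05.

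Several lists had medians of opposite sign in the lines, so that their common value described neither line. ATF4 targets had a median of -0.35 in MIA PaCa-2 against 0.18 in PANC-1, ribosomal proteins 0.09 and -0.23, and nuclear-encoded oxidative phosphorylation genes 0.12 and -0.17. The interferon response list had the lowest common median of the lists with at least 5 tested members, at -0.22, with 26 of 27 negative, and was at -0.41 in MIA PaCa-2 against -0.00 in PANC-1. Its mean log2 CPM was 4.78 in MIA PaCa-2 control replicate 1, 3.47 and 3.86 in the other controls and 3.77, 3.29 and 3.97 in the siRNA libraries. The first control was thus the only MIA PaCa-2 library that stood clear of the others, and without it the common median was -0.02. For ATF4 targets the common median was -0.17, and it was 0.00 without the same control. No member of these lists passed in edgeR. OAS2, an antiviral oligoadenylate synthetase, was at -0.71 (SE 0.43), and PSPH, an enzyme of serine synthesis, at -0.18 (SE 0.13).

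**Figure D4:**
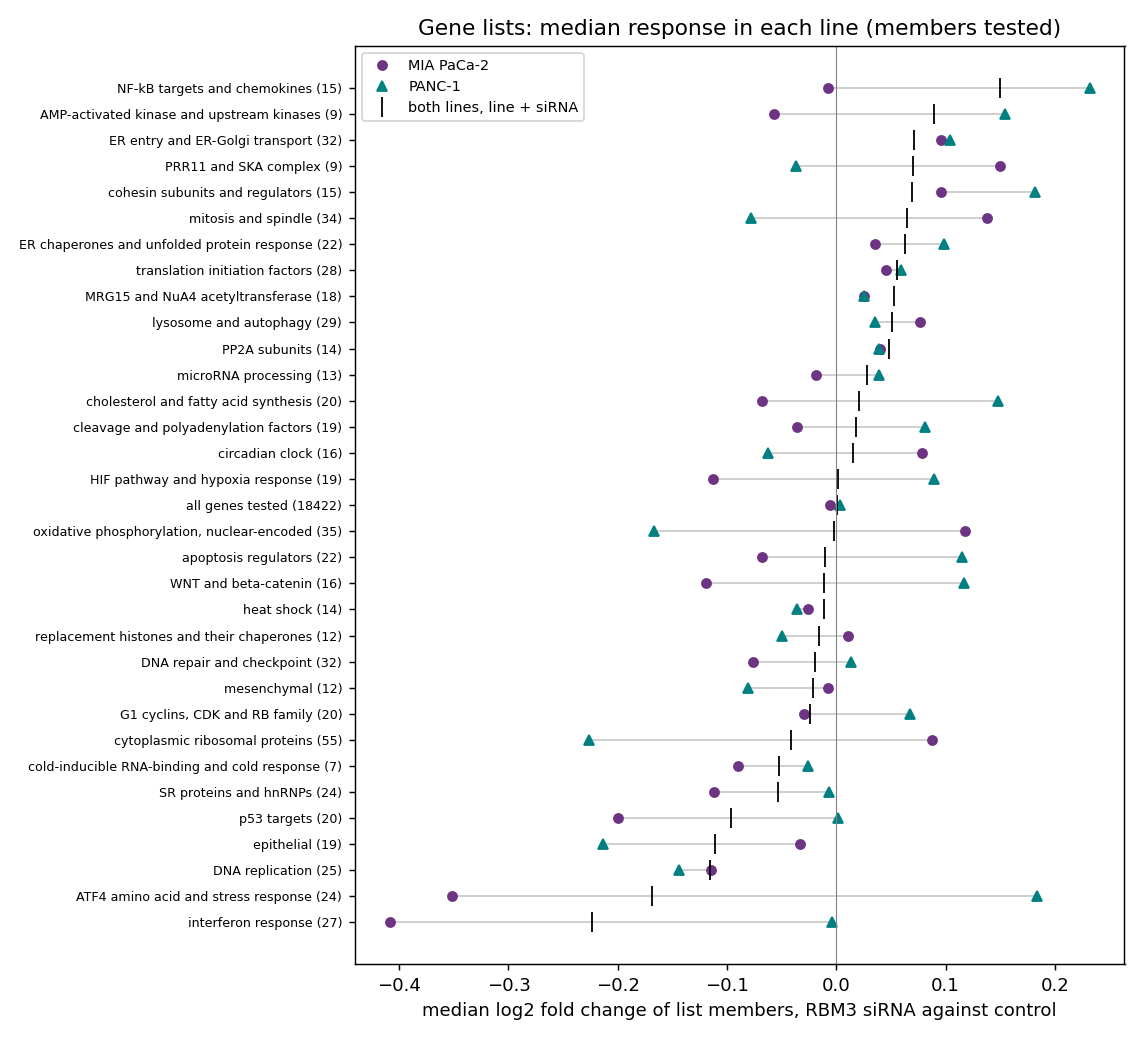
Median log2 fold change of the tested members of each gene list on the horizontal axis, with circles for MIA PaCa-2, triangles for PANC-1, black ticks for the estimate common to both lines and the number of members tested in brackets. The ER transport list is at 0.10 in both lines and DNA replication at -0.11 and -0.14, while ATF4 targets are at -0.35 and 0.18.

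Most other lists had medians within 0.1 of 0. Of the p53 targets 16 of 20 were negative, with a median of -0.10 (-0.15 to -0.06 when each library was left out), and MDM2, the ubiquitin ligase of p53, was at -0.38 (SE 0.16). The median was -0.20 in MIA PaCa-2 against 0.00 in PANC-1, and MDM2 was at -0.64 against -0.07, so both lay mainly in MIA PaCa-2. In the list of replacement histones, H3-3A was at 0.54 (SE 0.15) and H2AZ1 at -0.62 (SE 0.19), and BANF1, which bridges DNA and the nuclear lamina, was at 0.64 (SE 0.18). H3-3A was at 0.80 in MIA PaCa-2 against 0.21 in PANC-1, and BANF1 at 0.99 against 0.20. Both overlapped between groups in PANC-1. Lysosome and autophagy genes were positive in 19 of 29, with SCARB2, a lysosomal membrane protein, at -0.48 (SE 0.15) and RAB7A, a late endosomal GTPase, at 0.35 (SE 0.12). SCARB2 was at -0.81 in MIA PaCa-2 against -0.08 in PANC-1, and RAB7A at 0.46 against 0.22. Of the DNA repair genes 14 of 32 were positive, with XRCC4, a ligase partner in end joining, at 0.56 (SE 0.17). None of these passed in edgeR over all genes. Epithelial genes were negative in 14 of 19 with a median of -0.11, including KRT8 at -0.34 (SE 0.18). That median was -0.02 without PANC-1 siRNA replicate 2, -0.21 without PANC-1 siRNA replicate 1, and -0.17 without control replicate 1 of either line, and it turned to 0.03 with log2 total count as a covariate.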

How the data were processed

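The authors deposited 1 table of raw read counts per Ensembl gene for 12 RNA sequencing libraries. The submitters' processing notes name STAR 2.5.2a and Picard, with featureCounts from Subread and build hg19/GRCh37. Annotation release, strand setting and duplicate treatment: not given in the sources used here. With the strand unknown, overlapping and antisense genes may share counts, and duplicate removal would lower counts of abundant transcripts. Symbols matched 39699 of 63677 rows.

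Counts of 11 libraries were tested with edgeR 4.0.16 in R 4.3.3 (TMM, filterByExpr with a minimum count of 10, two-sided quasi-likelihood F-test, model line + siRNA with 8 residual degrees of freedom, Benjamini-Hochberg over 18422 genes). Values per line and the interaction came from a model of group means. The SE printed is approximate: the size of the log2 fold change over the root of its F statistic. A count of 0 allows up to 3 counts, or 0.0757 to 0.211 CPM by library, for counting error only. The chi-square per degree of freedom between libraries of a line was 11.7 to 184, so none was a copy.

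The members and the 37 gene lists were chosen with earlier results of these data known. Genes named were RBM3, PRR11, SKA2 and CCND3, genes past the threshold, up to 12 per direction by smallest p at 2 CPM or more without overlap in both lines, and 2 members per list with the smallest p. Further list members are named for their role and were picked once values had been seen. Alternatives were DESeq2 1.42.0, limma 3.58.1 (voom, with and without weights), sva 3.50.0, other scalings, filters, thresholds and covariates, each line alone, a replicate block and removal of each library. A pair indicator and the removal of a GC trend were added after seeing the data. Sequences came from GENCODE transcripts and RefSeq promoters (GRCh38.p14), another build than the counts. The code was tested on simulated data.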

Additional observations from a re-analysis of the deposited data

Results flagged for a closer look

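PANC1_siRBM3 replicate 3, which entered no main comparison, held transcripts that mark MIA PaCa-2 above their level in the PANC-1 controls. The collagen gene COL1A2 reached 445.7 CPM there and at most 1.67 CPM in the PANC-1 controls. ALDH1A1, a retinaldehyde dehydrogenase gene, was at 689.3 CPM and at most 2.14 CPM. The long non-coding RNA UCA1 was at 70.6 CPM and at most 0.128 CPM, and SLC17A9, a vesicular nucleotide transporter gene, at 30.7 CPM and at most 0.0856 CPM. In the same library 5 genes that mark PANC-1 summed to 160.2 CPM, between 263.5 and 328.7 CPM in the other PANC-1 libraries and at most 0.121 CPM in MIA PaCa-2.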

How the results depend on the processing

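RBM3 kept its direction in all 27 fits and was called in 25 of them, with a log2 fold change from -2.35 to -1.95 when each library was left out. It was not called in PANC-1 alone (-1.72, edgeR adjusted p 0.9999) or with the replicate number as a block (-2.28, edgeR adjusted p 0.869). The genes named for the common effect kept their sign in every fit, apart from SKA2 and CCND3. The leading higher and lower genes had been picked for groups without overlap in both lines, so their kept sign is not a result.

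The number of genes called higher was 0, and under the alternatives it was 2 with PANC1_siRBM3 replicate 3 kept in, 23 by DESeq2, 59 by weighted limma-voom, 3 without a filter, 3 with 1 surrogate variable, 1 with the GC trend removed, 2 at an adjusted p of 0.1, and 0 to 9 when each library was left out. The number called lower was 1, and it was 2 with that library, 4 by DESeq2, 18 by weighted limma-voom, 2 with library size alone, 2 without a filter, 2 in MIA PaCa-2 alone, 0 in PANC-1 alone, 0 with the replicate block, 3 with 1 surrogate variable, 2 with the GC trend removed, 2 at an adjusted p of 0.1, and 1 to 5 when each library was left out. Genes above all controls in both lines numbered 92, 139 without a filter, and 104 to 315 when a library was left out. Those below numbered 60, 29 with PANC1_siRBM3 replicate 3, and 63 to 252. Those on opposite sides numbered 76, 31 with that library, 45 at 1 CPM in 5 libraries, and 121 to 502. The cause of these shifts was not tested, other than that fewer libraries are easier to separate.

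Log2 fold changes that turned sign were those of SKA2 (0.157), BBC3 (0.0175), COL3A1 (0.257), VWF (0.0447), UCA1 (2.32) and COL1A2 (3.18) with PANC1_siRBM3 replicate 3. They were those of SKA2 (0.0449), CXCL3 (-0.0591), APC (-0.0336) and CDH5 (0.546) by weighted limma-voom, of SKA2 (0.0406) and APC (-0.0961) in MIA PaCa-2 alone, and of UCA1 (0.123) with equal weight of the lines. In PANC-1 alone they were those of CCND3 (-0.0173), AGO1 (0.0384), RPL34 (-0.0166), CEBPB (0.0931), COX6C (-0.0950) and IFI44 (0.211). With log2 total count as a covariate they were those of HSPB1 (0.0414), RNF43 (0.999), COL3A1 (0.0523) and ITGAM (-0.270). When each library was left out, signs turned within the ranges of SKA2 (-0.0841 to 0.0114), PCF11 (-0.0430 to 0.249), TNFAIP3 (-0.0649 to 0.957), CXCL3 (-0.0150 to 0.654), APC (-0.1497 to 0.597), RNF43 (-2.32 to 0.0961), ITGAM (-0.1499 to 0.798) and CDH5 (-2.52 to 1.27).

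The replicate block used numbers 1 and 2, which control and siRNA libraries share in each line. The numbers marked no shared source in the labels. Deviations of same-numbered libraries correlated at -0.00526 and -0.0316 in MIA PaCa-2, and the numbers were read as names. In PANC-1 the values were -0.664 and -0.354. The deviations of its 2 siRNA libraries from their mean mirror each other, so these values cannot show whether the numbers mark a shared source. Under the block edgeR called 0 genes, and TNFAIP3 was at -0.151.

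Several limits apply. PANC-1 had 2 siRNA libraries, both deeper than its controls. Members of gene lists at few counts, such as VWF at 0.255 CPM, carry large errors. Reads of MORF4L1 and MORF4L1P1 cannot be fully separated, and the 2 siRNA molecules were not measured apart. The lists were described by counts and medians, with no test of a list.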
